A study of Homo sapiens with 4 samples.

Results

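The regions described here are stretches of the K562 genome called as bound by CTCF that have another called region less than 2 kb away. They were found by merging the peak intervals of all 4 CTCF chromatin immunoprecipitation sequencing (ChIP-seq) libraries on chromosomes 1 to 22 and X, with at least 1 bp of overlap, into 13959 regions. Of these, 1048 regions had a gap of less than 2 kb, measured edge to edge, to the nearest other region on the chromosome. They form 534 pairs of adjacent neighbours. The members were chosen from the position of the calls in all 4 libraries, so counts of calls among them are descriptions and carry no test. The fold enrichment of a peak was not used to choose them.

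K562 is an established line of human leukaemia cells with erythroid traits. The labels give a treatment of 4 hours with a single anthracycline, aclarubicin or daunorubicin, each at 10 µM, and 2 libraries named biological replicates for each. The labels do not say whether the replicates came from separate cultures, so the spread between them may be partly technical. Untreated cells were not analysed here, and every comparison is of aclarubicin with daunorubicin. The aclarubicin lists held 10632 and 10710 peaks and the daunorubicin lists 5883 and 6637, and this difference in length runs through every count of calls below.

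CTCF is a zinc-finger protein that binds a long, directional DNA motif, stops the cohesin complex as it extrudes chromatin loops, and so marks loop anchors, domain borders and insulators. Sites often lie close together at such borders, where neighbouring CTCF molecules can each hold cohesin. Aclarubicin and daunorubicin are anthracyclines, flat molecules that slide between DNA base pairs and can displace proteins from chromatin. Daunorubicin also traps topoisomerase II on cut DNA, whereas aclarubicin intercalates without leaving such breaks.

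Gaps of 200 to 1000 bp were more common among neighbours than shorter or longer ones. The gap between them had a median of 828 bp, with the middle part of the pairs between 450.75 and 1315.25 bp and a full range of 0 to 1998 bp. In classes of 200 bp, 28 pairs lay below 200 bp, 86 at 200 to 400 bp, and 32 to 77 in each later class up to the limit, without a steady fall. The first class beyond the limit held 28. Gaps below 500 bp made up 154 pairs. The summits, the single most enriched base of each peak, were 1400.5, 1385, 1435 and 1482 bp apart at the median in aclarubicin replicates 1 and 2 and daunorubicin replicates 1 and 2, over the 264, 278, 103 and 108 pairs with both neighbours called in that library. Between the aclarubicin replicates the distance moved by a median of 23 bp (186 pairs), between the daunorubicin replicates by 23 bp (70 pairs), and between libraries of different drugs by 24 to 31.5 bp (66 to 76 pairs). The distance between the summits of a pair called in 2 libraries therefore differed about as much between replicates as between drugs. A shift of both summits together was not measured.

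**Figure D1:**
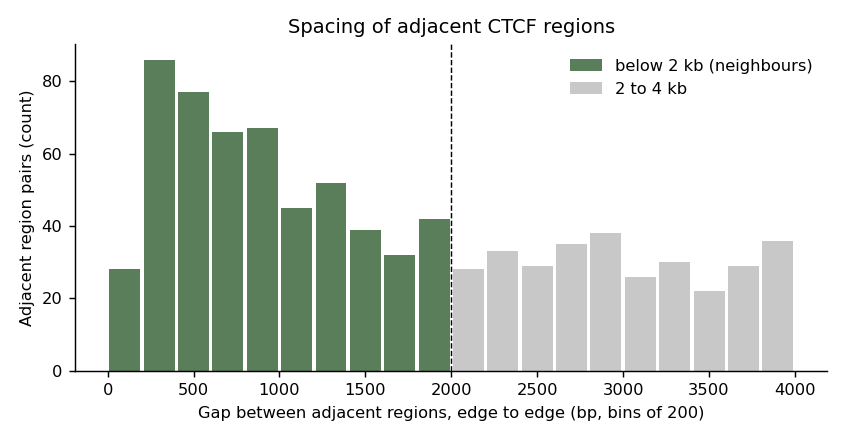
Number of adjacent region pairs (y axis) by the gap between them in bp, in classes of 200 bp (x axis), with the neighbours below 2 kb in green and pairs beyond the limit (dashed line) in grey. Gaps of 200 to 400 bp are the most common, with 86 pairs.

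Most groups of close regions were simple pairs. The 1048 regions form 514 runs linked by gaps below 2 kb, of which 496 hold 2 regions, 16 hold 3 and 2 hold 4. Both runs of 4 are on chromosome 22, at 22973733 to 22977639 and at 21053016 to 21056963 (GRCh37, 1-based). In the first, the 3 regions from the left were called at folds of 5.55 and 4.95, of 5.44 and 4.74, and of 6.43 and 5.79 under aclarubicin, while under daunorubicin only replicate 2 had any call, at 5.39 on the leftmost region and 6.68 on the rightmost. In the second, every call had a fold of 3.59 or less. The run of 3 with the shortest span, 1568 bp, lies on chromosome 17 at 62915488 to 62917055, and only its middle region was called in both replicates of a drug (folds of 4.45 and 3.72 under aclarubicin).

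Chromosome 22 held the highest share of such regions, 86 of its 479 (18.0%), followed by chromosome 19 with 101 of 1006 (10.0%), against 7.51% of all regions. Chromosome X had the lowest share, 2.18%. The excess on chromosome 22 sat in a 10-Mb window from 15000001 to 25000000, picked after the values were seen, where 74 of 257 regions were members. The background under peaks in that window was 4.58, 3.97, 4.14 and 4.50 times that of all regions in the 4 libraries. K562 is known to carry many extra copies of the fused BCR and ABL1 segments of chromosomes 22 and 9; copy number was not measured here and its part in the spacing was not tested. Only some drug comparisons were also computed without this window: the pairs with both neighbours called, the pairs kept under daunorubicin, the percentile gap and size of the fold ratio between neighbours, the sharing of the stronger neighbour and the share called in all 4 libraries.

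Close neighbours had low fold enrichment for their drug and library. Fold is the deposited ratio of fragments at the summit over a background, and its percentile is the rank of a peak within its own list. The median member peak stood at percentile 31.8 and 29.8 in the aclarubicin libraries and 30.4 and 30.1 in the daunorubicin libraries, while peaks of all other regions stood at 51.6, 51.5, 51.6 and 51.5. The median fold was 5.92, 5.72, 6.06 and 6.54 in members and 7.70, 7.62, 7.36 and 7.94 in the others. Only 3.06%, 3.01%, 5.54% and 4.26% of member peaks exceeded percentile 90. The mean ranks of the drugs, 30.8 ± 1.35 for aclarubicin and 30.2 ± 0.206 for daunorubicin, differed by less than the spread between replicates (SD, n = 2, exact permutation test, two-sided p = 1). With 2 libraries against 2, the smallest p this test can give is 0.333, so no comparison of the drugs by it can pass a threshold.

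The low fold did not come with few fragments. The number of fragments over the summit, recovered from the fold and the p-value of each peak, had medians of 56, 58, 42 and 42 in members and 44, 46, 35 and 33 in the other regions, so members held more. Their recovered background was higher by a larger factor, with medians of 9.53, 10.1, 6.49 and 5.54 fragments against 5.32, 5.78, 4.11 and 3.404, or 1.79, 1.74, 1.58 and 1.63 times. Ranked by −log10 p, members stood near the middle of their lists, at percentiles 48.9, 47.7, 47.6 and 50.7, and ranked by fragments they stood above it, at 61.9, 61.4, 61.8 and 64.8. Without the chromosome 22 window the background of members was still 1.74, 1.70, 1.54 and 1.62 times that of the others. How wide a window the background was taken from is not given in the sources used here, so fragments of the neighbour itself and a generally raised local background cannot be told apart. The ranks by the 3 measures are drawn in the plot of percentile classes.

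**Figure D2:**
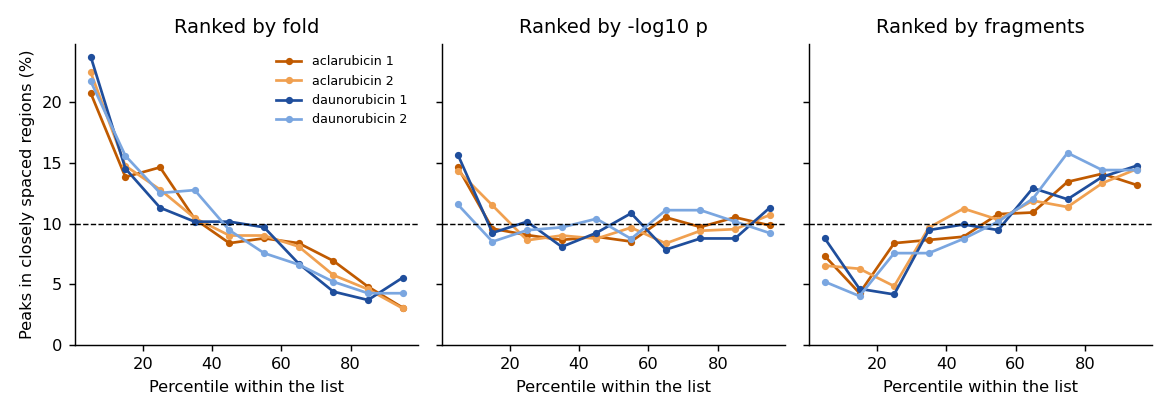
Share of the peaks in closely spaced regions (y axis, %) in each class of 10 percentiles of their own list (x axis), ranked by fold, by −log10 p or by fragments over the summit, with a line for each library and a dashed line at the 10% an even spread would give. Member peaks gather in the low classes by fold and in the high classes by fragments.

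Aclarubicin calls dominated among the close neighbours, about as they did everywhere. Members were called 750 and 764 times in the aclarubicin libraries, 71.6% and 72.9% of the 1048, beside 76.1% and 76.7% of all regions. They were called 431 and 423 times in the daunorubicin libraries, 41.1% and 40.4%, beside 42.1% and 47.5% of all regions. All 4 libraries called 266 members (25.4%), beside 29.5% of all regions. Both aclarubicin libraries and no daunorubicin library called 247 (23.6%), here named aclarubicin-only, beside 23.8% of all regions. The opposite class, daunorubicin-only, held 42 members (4.01%), beside 3.17% of all regions. These 3 shares lie near the background. The share called in all 4, members minus non-members, was −4.48 percentage points, but 3.51 with a minimum −log10 q of 10 and 3.49 with lists cut to equal length, so its direction turned when the weakest calls were left out. Calls in a single library made up 359 members (34.3%), against 28.2% of the non-members.

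Within close pairs, as within wider ones, aclarubicin showed both neighbours far more often than daunorubicin did. Both were called in 264 and 278 pairs under aclarubicin and in 103 and 108 pairs under daunorubicin. The means are 271 ± 9.90 and 105.5 ± 3.54 (SD, n = 2), a 2.57-fold difference, beside a 1.77-fold difference in the number of members called. Of the pairs with any call in a library, both neighbours were called in 53.1% and 55.8% under aclarubicin and in 30.5% and 33.9% under daunorubicin. The difference in mean share, aclarubicin minus daunorubicin, was 22.3 percentage points in close pairs. It was larger at wider gaps. The values there were 28.9 at 2000 to 5000 bp, 35.5 at 5000 to 20000 bp and 31.4 at 20000 bp or more. The excess under aclarubicin is therefore not read as a trait of close pairs. In close pairs, the libraries of the drugs did not overlap in either the count or the share. This difference depended on the lengths of the lists: with each deposited list first cut to its 5886 most significant peaks, the length of the shortest before other chromosomes were left out, the difference in share fell from 22.3 to 1.86 percentage points and the log2 ratio of the counts from 1.36 to 0.09.

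Joint calls under aclarubicin were rarest in the tightest pairs. At gaps below 500 bp, both were called in 42.6% and 47.1% of the pairs with a call under aclarubicin and in 30.8% and 25.9% under daunorubicin (154 pairs). At 500 to 1000 bp the shares were 53.2% and 52.9% against 28.9% and 31.3% (170 pairs). At 1000 to 2000 bp they were 60.6% and 64.2% against 31.3% and 40.1% (210 pairs). The low aclarubicin shares below 500 bp rested largely on the 28 pairs below 200 bp, a class set apart after the values were seen, where both were called in 12.0% and 13.04% under aclarubicin and in 21.4% and 11.1% under daunorubicin. At 200 to 500 bp the aclarubicin shares were 49.1% and 53.8% (126 pairs), so replicate 2 did not rise from there to 500 to 1000 bp. Beyond the limit, at 2000 to 5000 bp, the means were 60.8% and 31.9% (489 pairs). Merging joined 11, 5, 4 and 4 close pairs of peaks in aclarubicin replicates 1 and 2 and daunorubicin replicates 1 and 2 into single regions. Such pairs are not counted as joint calls, and their part in the low shares at short gaps was not tested.

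Set against pairs 2 to 20 kb apart, the closely spaced pairs had fewer joint calls in both aclarubicin libraries. In the daunorubicin libraries the differences lay on both sides of 0. Pairs 2 to 20 kb apart were both called in 65.7% and 66.9% under aclarubicin and in 30.6% and 33.1% under daunorubicin. The close pairs minus these gave −12.6 and −11.05 percentage points under aclarubicin, and −0.132 and 0.789 under daunorubicin. In lists of equal length the same differences were −6.87 and −4.17 points under aclarubicin and −0.734 and 2.37 under daunorubicin. At 200 to 2000 bp, without the tightest pairs, the aclarubicin shares were 55.3% and 57.9%. The contrast depended on the reference. Pairs 20 kb or more apart were both called in 61.5% and 61.3% under aclarubicin, nearer to the close pairs. Under daunorubicin their shares were 27.3% and 32.8%, below those of the close pairs in both libraries. Since the rule used the calls, these differences carry no test. At the 2 kb limit itself, both were called in 24, 25, 11 and 13 of the 42 pairs at 1800 to 2000 bp and in 12, 15, 2 and 1 of the 28 pairs at 2000 to 2200 bp.

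**Figure D3:**
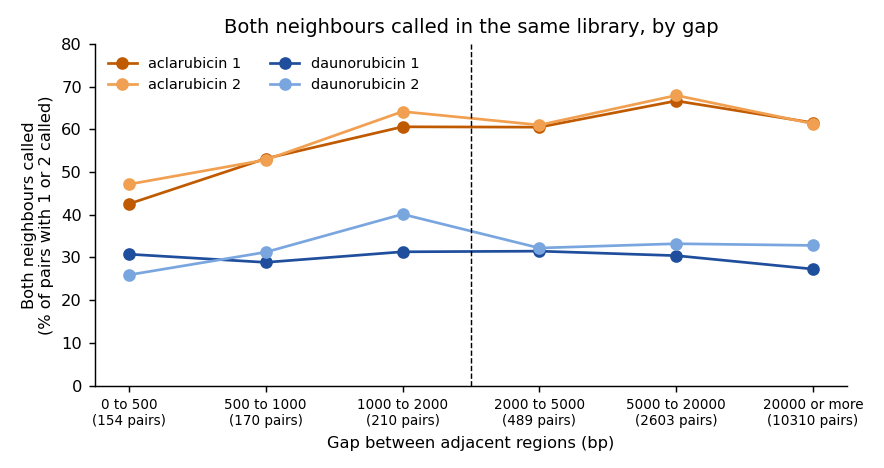
Share of adjacent pairs with both neighbours called, of those with at least 1 called in that library (y axis, %), by the gap between them in bp (x axis), with a point for each library and the 2 kb limit dashed. The aclarubicin libraries stand at 42.6% and 47.1% below 500 bp and at 60.6% and 64.2% at 1000 to 2000 bp, and the daunorubicin libraries stay between 25.9% and 40.1% below the limit.

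Which neighbour stayed when the drug changed was read from the 186 pairs with both neighbours called in both aclarubicin libraries. In both daunorubicin libraries, 53 of these pairs kept both neighbours (28.5%, exact Clopper-Pearson 95% interval 22.1 to 35.6, for counting error only). A further 60 showed only the neighbour with the higher fold under aclarubicin (32.3%), 18 showed only the weaker one (9.68%), and 55 showed neither (29.6%). So 1 neighbour alone was the stronger one in 76.9% of 78 pairs (66.0 to 85.7). The stronger neighbours had a median aclarubicin percentile of 59.7 and the weaker ones 24.3. Pairs reduced to the stronger neighbour had a median difference of 31.3 percentiles between neighbours, and those reduced to the weaker one 15.2. With lists of equal length the share that kept both was 38.2%. Of 1432 pairs 2 to 20 kb apart with both neighbours called in both aclarubicin libraries, 361 had both called in all 4 libraries. The share reduced to the stronger neighbour was not computed at those gaps. These values are therefore not read as a trait of close neighbours.

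In the other direction most pairs were kept, as most daunorubicin regions were. Of the 70 pairs with both neighbours called in both daunorubicin libraries, 53 had both called in both aclarubicin libraries (75.7%, 64.0 to 85.2), 11 only the stronger, 4 only the weaker and 2 neither. Single regions of these pairs were called in both aclarubicin libraries in 121 of 140 cases (86.4%), and daunorubicin regions with no other region within 2 kb in 3855 of 4548 (84.8%). The pairs with exactly 1 neighbour called in both replicates under each drug numbered 91. The same neighbour was called in 68 of them and different neighbours in 23.

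**Figure D4:**
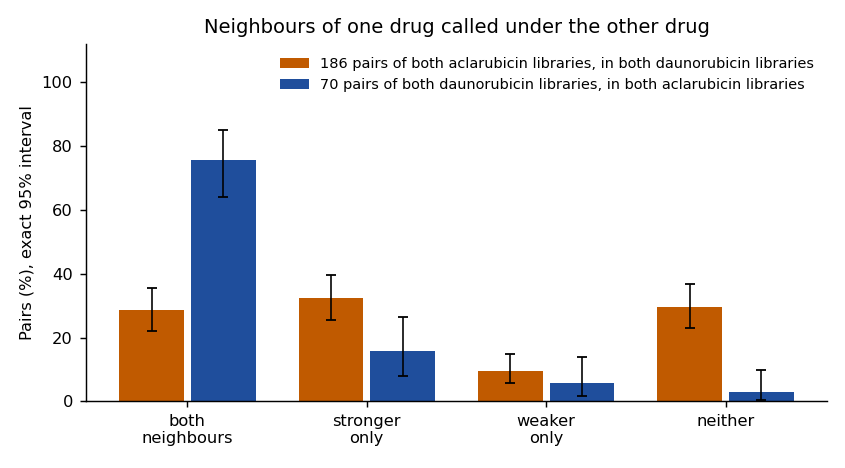
Share of pairs (y axis, %, with exact 95% intervals for counting error) called in both replicates of one drug that showed both neighbours, only the stronger, only the weaker or neither in both replicates of the other drug (x axis). Of 186 aclarubicin pairs 28.5% kept both neighbours under daunorubicin, and of 70 daunorubicin pairs 75.7% kept both under aclarubicin.

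Aclarubicin regions in pairs and aclarubicin regions apart were daunorubicin regions at similar shares. Regions in those 186 pairs were called in both daunorubicin libraries in 184 of 369 cases (49.9%), and regions with no other region within 2 kb in 3855 of 8226 (46.9%). At like fold the paired regions were found more often, at 45.9% against 25.7% between percentiles 25 and 50 and at 72.0% against 48.4% between percentiles 50 and 75. The difference was smaller below percentile 25 (22.3% against 16.2%) and above percentile 75 (81.4% against 77.8%). At like −log10 p the direction was mixed. From the lowest class to the highest, the shares were 18.6% against 12.6%, 25.9% against 22.2%, 43.5% against 49.5% and 80.8% against 82.7%. The higher background of paired regions described above lies between the fold and the p-value, and its part was not tested. The same was seen when a neighbour was sought only within the list itself. At equal fold, such aclarubicin peaks were found in a daunorubicin list more often than other aclarubicin peaks by 13.6, 11.2, 13.7 and 11.2 percentage points, and between the aclarubicin replicates by 9.05 and 9.44. At equal −log10 p the mean difference between drugs was −1.24.

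Named pairs show the patterns at single places, and were taken by rank of fold within each class. Among the 51 pairs with one neighbour called in all 4 libraries and the other aclarubicin-only, the shared neighbour had the higher fold under aclarubicin in 39. Regions called in all 4 libraries ranked higher with or without a close neighbour. In the aclarubicin lists, such members stood at median percentiles 57.1 and 58.7, against 31.8 and 29.8 for all members. Such non-members stood at 75.6 and 76.0, against 51.6 and 51.5 for all non-members. On chromosome 1, the shared region at 173400286 to 173400827 had aclarubicin folds of 11.7 and 10.4 and daunorubicin folds of 9.27 and 11.6. Its neighbour 1263 bp to the left, at 173398621 to 173399022, had 8.75 and 9.36 under aclarubicin and was not called under daunorubicin. On chromosome 18, the shared region at 45280931 to 45281290 (8.59, 8.95, 8.33 and 10.5 in the 4 libraries) lay 1470 bp from an aclarubicin-only region at 45282761 to 45283137 (9.77 and 9.02), which was the stronger of the 2 under aclarubicin by a small margin.

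In another pair on chromosome 1, the aclarubicin-only neighbour was the stronger under aclarubicin by a wide margin. The aclarubicin-only region at 47902025 to 47902597 had folds of 14.5 and 13.5, from 319 and 303 fragments, and stood at percentiles 93.6 and 92.4 of the aclarubicin lists. Its neighbour 807 bp away, at 47903405 to 47903818, had aclarubicin folds of 5.94 and 5.49 and daunorubicin folds of 7.38 and 7.71. So the stronger region under aclarubicin was the one with no daunorubicin call, and the weaker one was called in all 4 libraries.

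The 11 pairs of a shared and a daunorubicin-only region showed the shared neighbour stronger under daunorubicin in 8. Members called in all 4 libraries stood at median percentiles 43.9 and 40.4 of the daunorubicin lists, against 30.4 and 30.1 for all members. On chromosome 21, the shared region at 9826887 to 9827565 had folds of 19.97, 16.5, 12.9 and 18.8. It held 549, 488, 467 and 415 fragments, against member medians of 56, 58, 42 and 42, and whether such a signal reflects CTCF binding was not tested. The daunorubicin-only region at 9825493 to 9826322, 564 bp away, had 8.17 in replicate 1 and 4.01 in replicate 2, a wide spread. On chromosome 3, the shared region at 120277698 to 120278166 had 13.1, 11.4, 6.85 and 10.5, and the daunorubicin-only region at 120280103 to 120280409 had 6.68 and 6.30. On chromosome 1, the shared region at 203236377 to 203236909 had 12.4, 12.4, 7.48 and 7.70, and the daunorubicin-only region at 203238226 to 203238489 had 5.53 and 5.03.

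Pairs of an aclarubicin-only and a daunorubicin-only region, where the called region differs between drugs, numbered 12 (2.25% of all close pairs). The share of such pairs at wider gaps was not computed, so this count is not read as a trait of close neighbours. Their median gap was 585.5 bp, and 6 of them were below 500 bp, beside 154 of all 534 close pairs (28.8%). Among the 12, the shortest gap was 12 bp and the lower quartile 234.25 bp, less than the median width of member peaks (323 to 369 bp). At such gaps, a switch between 2 sites and a single site called at shifted intervals cannot be told apart. On chromosome 21, the daunorubicin-only region at 30117424 to 30117692 had folds of 7.55 and 7.77, and the aclarubicin-only region at 30118027 to 30118374, only 334 bp away, had 14.1 and 11.3. On chromosome 12 the corresponding regions, 53845443 to 53845791 and 53846586 to 53846867, had 8.20 and 7.90 under daunorubicin and 5.84 and 5.19 under aclarubicin. On chromosome 6 the aclarubicin-only region at 129820178 to 129820567 had 6.99 and 6.85, and the daunorubicin-only region at 129822063 to 129822443 had 5.67 and 7.23.

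Both neighbours were aclarubicin-only in 34 pairs (6.37% of all close pairs), with a median gap of 802.5 bp, and both were daunorubicin-only in 0 pairs. Of all regions, 23.8% were aclarubicin-only and 3.17% daunorubicin-only. Shares of these pair classes at wider gaps were not computed, so the counts are not read as a trait of close neighbours. The 3 highest of these aclarubicin-only pairs were each uneven. On chromosome 9, folds were 5.54 and 7.32 at 6054527 to 6054835 and 11.03 and 10.3 at 6055253 to 6055587. On chromosome 2, they were 12.8 and 11.9 at 132430203 to 132430791 and 5.47 and 4.79 at 132431583 to 132431886. On chromosome 10, they were 11.3 and 9.88 at 134606551 to 134607132 and 5.52 and 4.85 at 134607543 to 134607875.

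The remaining comparison was of the relative fold of neighbours called together. Over all pairs with both called in a library, the neighbours differed by a median of 23.5 and 23.8 percentiles in the aclarubicin libraries and 22.8 and 22.03 in the daunorubicin libraries. The difference between drugs was 1.23 percentiles, with a pooled SD of 0.435 between replicates (exact permutation test, two-sided, n = 2 per drug, p = 0.333). It changed sign when neighbours were taken within 1 kb (−4.22) or within 5 kb (−0.906), so no difference between drugs was established. The neighbours of a pair had nearly the same recovered background, with a median ratio of 1.02, 1.02, 1.03 and 1.02, so their fold ratio within a library is close to their fragment ratio.

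The 53 pairs with both neighbours called in all 4 libraries allow the same places to be compared. They are 53 of the 186 pairs of both aclarubicin libraries, but 53 of the 70 of both daunorubicin libraries. The call filter may therefore act unequally on the fold ratios of the drugs. The permutation test does not allow for this, and its part was not tested. Their median gap was 1194 bp. The size of the log2 fold ratio between neighbours had a median of 0.58 and 0.53 in the aclarubicin libraries and 0.37 and 0.33 in the daunorubicin libraries. The replicates of each drug lay closer to each other than to the other drug, and the neighbours were more equal under daunorubicin by 0.20 (pooled SD 0.03, exact permutation test, two-sided, n = 2 per drug, p = 0.333, the smallest possible). The ratio of fragments gave 0.57, 0.53, 0.34 and 0.36. In 361 pairs 2 to 20 kb apart the medians were 0.52, 0.48, 0.44 and 0.50, a difference of 0.03 that lies within the pooled SD of 0.03. By fragments, however, those distant pairs gave 0.70, 0.66, 0.56 and 0.63, a difference between drugs of 0.09 in the same direction, beyond the pooled SD of 0.04. By fold the difference between close and distant pairs was itself 0.17 (pooled SD 0.05, exact permutation p = 0.333, two-sided, n = 2 per drug). This comparison was chosen after the values were seen. The difference in close pairs was 0.08 in lists of equal length. The difference between close and distant pairs was 0.11 by fragments, 0.09 with close pairs taken up to 5 kb, 0.10 in lists of equal length and 0.11 without daunorubicin replicate 2.

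Replicates of a drug shared the stronger neighbour more often than libraries of different drugs did. The same neighbour had the higher fold in both aclarubicin libraries in 156 of 186 pairs (83.9%) and in both daunorubicin libraries in 53 of 70 (75.7%). Between libraries of different drugs the share was 68.2%, 56.6%, 66.7% and 61.3%, over 66 to 76 pairs. The mean difference, 16.6 percentage points, was 10.7 without aclarubicin replicate 1. At 2 to 20 kb the replicates shared the stronger neighbour in 87.0% and 84.8%, and libraries of different drugs in 69.8% to 72.7%. In the 53 pairs, the order was the same within each drug in 35, and in 13 of these it was opposite between the drugs. Of 13 pairs with at least a 2-fold mean ratio under aclarubicin, 9 had the same neighbour stronger in all 4 libraries, against 13 of the other 40. The aclarubicin libraries both sorted these pairs and entered the outcome. The contrast was therefore partly set in advance, and no conclusion is drawn from it.

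**Figure D5:**
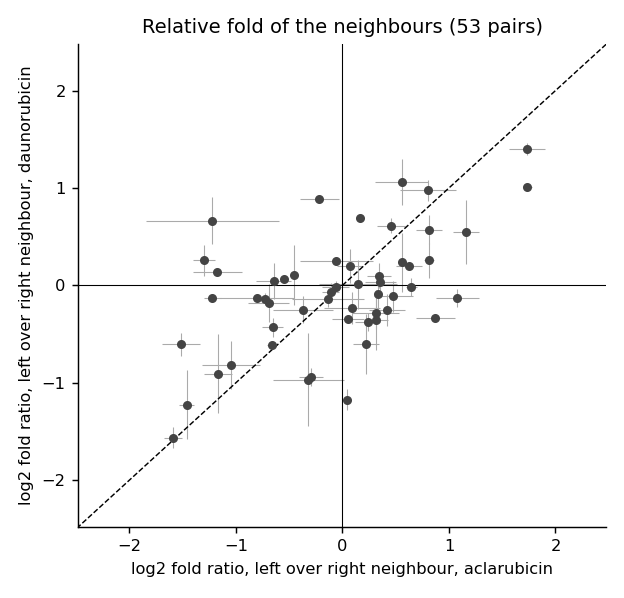
Mean log2 fold ratio of the left over the right neighbour under aclarubicin (x axis) and daunorubicin (y axis) in the 53 pairs called in all 4 libraries, with lines from replicate to replicate and equality dashed. Points in the upper left and lower right have opposite orders, and the spread along the y axis is narrower than along the x axis.

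In a pair on chromosome 10, the neighbours differed widely under aclarubicin and were nearly equal, in the opposite order, under daunorubicin. The left region, at 80955158 to 80955583, had folds of 5.47 and 6.21 with aclarubicin but 10.1 and 11.9 with daunorubicin. The right region, 936 bp away at 80956520 to 80957070, had 14.5 and 11.9 with aclarubicin and 9.04 and 10.9 with daunorubicin. The mean log2 ratio of left over right was −1.17 under aclarubicin and 0.14 under daunorubicin. The summits were 1415, 1420, 1412 and 1410 bp apart in the 4 libraries, so their distance stayed nearly the same. The left region stood at percentiles 26.0 and 35.8 of the aclarubicin lists and 84.4 and 89.4 of the daunorubicin lists, while the right region stood at 74.6 or higher in every library.

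Order also changed in a pair on chromosome 9 at 133814430 to 133814956 and 133816432 to 133816944, where the left region had folds of 1.71, 3.57, 5.05 and 4.78 and the right region 6.14, 5.40, 2.70 and 3.57. This pair lies at low folds, and its mean log2 ratio went from −1.22 to 0.66. On chromosome 4, at 49289006 to 49289677 and 49289958 to 49290386, the ratio went from −1.30 to 0.26. There the folds of the right region were 15.0 and 14.1 (aclarubicin), then 6.35 and 5.93 (daunorubicin), while the left had 5.68, 6.14, 8.47 and 6.36. The daunorubicin order rested on few fragments, 23 and 14 on the left against 17 and 13 on the right. The member medians in those libraries were 42 and 42, so a reversal is not established there. The summits of that pair were 1056, 684, 638 and 560 bp apart, so the aclarubicin replicates did not share their positions.

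Other named pairs called in all 4 libraries varied in how far they kept their order. The pair with the highest mean rank, on chromosome 6 at 83775351 to 83775861 and 83777067 to 83777523, had 13.9 and 10.9, 13.5 and 10.8, 9.87 and 9.30, and 8.26 and 9.92 in the 4 libraries, with log2 ratios of left over right of 0.34, 0.33, 0.09 and −0.26. On chromosome 14, at 34792155 to 34792521 and 34793565 to 34793951, the left neighbour was stronger in the first 3 libraries and the right by a small margin in daunorubicin replicate 2 (10.7 and 11.2). Among the 53 pairs, the one with the shortest gap, 179 bp, on chromosome 8 at 125437538 to 125437975 and 125438155 to 125438652, had the right neighbour stronger in all 4 libraries, with 14.0, 12.2, 8.32 and 10.6 against 5.61, 7.12, 5.58 and 5.07. With a gap of 207 bp, the pair on chromosome 1 at 206898917 to 206899354 and 206899562 to 206900123 also kept its right neighbour stronger, at log2 ratios of −1.33, −1.69, −0.72 and −0.49 in the 4 libraries. A pair on chromosome 6 at 16331506 to 16332003 and 16332260 to 16332679, with a gap of 256 bp, kept its left neighbour stronger in every library.

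The 3 pairs with the longest gaps among those 53 behaved in mixed ways. On chromosome 6, the region at 33091409 to 33091869 and its neighbour 1998 bp away had a mean log2 ratio of 0.22 under aclarubicin and −0.60 under daunorubicin. On chromosome 16, the pair starting at 68295363 kept the left neighbour stronger, at 0.81 and 0.57. On chromosome 4, the pair starting at 1747894, with a gap of 1961 bp, had −0.45 under aclarubicin, and its daunorubicin replicates disagreed in sign at 0.41 and −0.20. No gene, motif or sequence was assigned to any of these regions, since a genome of the same build was not used here.

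At the level of single regions called in all 4 libraries, the members had a lower drug ratio of fold than other regions had. The median log2 ratio of aclarubicin over daunorubicin was 0.15 in the 266 members and 0.29 in 3855 others for fold. For fragments over the summit it was 0.93 and 0.88, in the opposite order. These regions passed the call threshold in every library, and total depth was not given in the files, so neither value measures a change in binding.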

How the data were processed

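CTCF ChIP-seq peak lists of 4 K562 libraries were analysed, 1 list per library. The submitters' processing notes name Bowtie2, Picard and bedtools and the builds GRCh37 and hg19, without versions or roles; the peak caller, its threshold and any control are not given in the sources used here. The 10 deposited columns have no header. The deposited score was not used beyond a check of its range. The deposited fold (a ratio over background) ranked peaks within a list, and the deposited −log10 p and −log10 q served for alternatives. All are the authors' values per peak. Fragments and background were solved from fold and −log10 p, under a Poisson model with 1 added to both; the fragments came out whole within 0.02 in 100% of the peaks. The values from which percentiles were made are those of the strongest peak of a region in each library. Depth is not known, and intervals cover counting error only.

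Regions were merged in Python 3.11.15 (numpy 2.4.6, pandas 2.3.3, scipy 1.17.1, matplotlib 3.10.9); gaps matched bedtools 2.31.1 in all 13959 regions, with 0 that differed. The scripts were tested on simulated data. Library values were compared with two-sided exact permutation tests. Named pairs were the 3 with the highest mean fold percentile per class of calls, among pairs with both neighbours in all 4 libraries the 3 shortest and 3 longest gaps and the 3 largest changes of order, and the 3 longest runs. Members, rules and tests were chosen with earlier results of these data known. Alternatives changed the gap limit, the peaks used, the list length, the ranking column, the strata, the overlap rule and the libraries used. Peaks off chromosomes 1 to 22 and X, genes and sequences were not used here. No list of high-signal or repeat regions was used here to exclude peaks.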

Additional observations from a re-analysis of the deposited data

How the results depend on the processing

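Of 90 recomputed values other than those with a replicate block, 5 reversed and 19 moved beyond their spread or counting interval. The spread was that between replicates. For the shared stronger neighbour and the peaks found again it was the SD over the different-drug library comparisons, which share libraries. The other 66 stayed within the spread or interval or, for values with a permutation test, kept their direction, whatever their size. The causes were not tested. The percentile gap between neighbours, 1.23 higher under aclarubicin, became −4.22 with neighbours within 1 kb and −0.906 within 5 kb. The log2 ratio of pairs with both neighbours called, 1.36, became 1.46 within 1 kb and 0.09 (0.08654) in lists of equal length. The difference in the share with both called, 22.3 percentage points, became 19.9 within 1 kb, 25.5 within 5 kb, 29.5 at a −log10 q of at least 10 and 1.86 in lists of equal length, and ranged from 23.2 to 31.9 when leaving out each library. Same-drug libraries shared the stronger neighbour more often than different-drug libraries by 16.6 percentage points, and by 10.7 to 24.5 when leaving out each library. The share of aclarubicin pairs that kept both neighbours, 28.5%, became 38.2% in lists of equal length and ranged from 19.4% to 39.0% when leaving out each library. The excess of peaks with a neighbour found again at equal fold, 12.4 points for aclarubicin lists and 7.19 for daunorubicin lists, became 8.59 and 3.97 within 1 kb and −1.24 and 0.377 within strata of −log10 p. The share of members called in all 4 libraries, −4.48 points against the others, became −9.13 within 1 kb, 3.51 at a −log10 q of at least 10 and 3.49 in lists of equal length. The difference in the size of the log2 fold ratio, 0.20, ranged from 0.08 in lists of equal length to 0.27 within 1 kb. Leaving out the chromosome 22 window, added after seeing the data, changed no direction. Replicate numbers are shared by the drugs, but the labels tie them to no common batch. Replicate 1 minus 2 under one drug correlated with the same under the other, across the 266 shared members, at −0.16 (fragments) and −0.12 (fold). With the replicate number as a block, or with crossed pairing, the differences stay at 1.23, 1.36, 22.3, 0.20 and 0.17 by construction, and the smallest p of a sign-flip test is 0.5. Unknown depth and 2 libraries per drug limit every comparison.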

Other observations

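Some close neighbours of one list are hidden when lists are merged. Counted within each list alone, 273, 283, 101 and 106 adjacent peaks lay less than 2 kb apart in aclarubicin replicates 1 and 2 and daunorubicin replicates 1 and 2. Of these, 11, 5, 4 and 4 were joined into 1 region by a peak of another library that spanned both. Peaks with such a neighbour made up 5.10%, 5.23%, 3.43% and 3.19% of their lists.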
